A study of Homo sapiens with 6 samples.

Results

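DLG1 was examined as the splice junctions listed between positions 196769400 and 197025500 of chromosome 3 (hg19 build, minus strand), the window of the gene. In all, 101 of the 780566 junctions in the series lay there, of which 45 were annotated and 56 were not. The gene was taken up because a 100 nt exon at 196803457 to 196803556 had differed between the genotypes in these same libraries. Every value at that exon and at the splice sites it shares junctions with is therefore a description, with no p-value, and a call there supports nothing. The libraries came from K562, a human chronic myeloid leukaemia cell line, with 3 replicates carrying a U2AF1 wild type knock-in and 3 replicates labelled U2AF1 S34F. U2AF1 is the small subunit of the factor that reads the AG that closes an intron. The S34F mutation changes serine to phenylalanine in a zinc finger of the protein. No treatment, time point or clone is named in the labels, and the control carries a knock-in of its own. Nothing says that replicates are separate cultures, so p-values measure the spread between these libraries only. The comparison asks which DLG1 splice sites were chosen in S34F and in wild-type cells.

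DLG1 encodes the scaffold protein SAP97, a membrane-associated guanylate kinase homologue that organises receptors, channels and polarity proteins at cell contacts. The protein carries an L27 region or a shorter alternative start, then PDZ domains, an SH3 domain and a guanylate kinase-like domain without enzyme activity. Alternative exons are known to alter the stretch between the N-terminal region and the first PDZ domain, and the stretch between the SH3 and guanylate kinase-like domains, where an insert can bind protein 4.1. The tables name no exons, so exons are called here by their length and position, and none was matched to a protein insert. Sequence and annotation of hg19 were not used here, so that bases at the acceptors, reading frames, untranslated regions, the genes of the DLG1 pathway and K562 marker genes were not analysed.

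DLG1 was spliced at a like level in both genotypes. Unique reads spanning its junctions numbered 2022, 2161 and 1424 in wild-type replicates 1 to 3, and 1903, 1343 and 3341 in S34F replicates 1 to 3. These came from libraries of 18074706 to 39279169 unique junction reads, with S34F replicate 3 the deepest and S34F replicate 2 the shallowest. Per 1000000 unique junction reads of the library, DLG1 had 79.5, 86.7 and 73.5 in wild type. It had 81.1, 74.3 and 85.1 in S34F, so the groups overlapped. The means were 79.9 ± 6.6 and 80.2 ± 5.4 (SD, n = 3 each). The difference of 0.27 was within the spread (exact permutation test, two-sided, p = 1, where 3 against 3 libraries allow none below 0.1). The sign of the difference turned under other scalings, so it gives no direction.

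**Figure D1:**
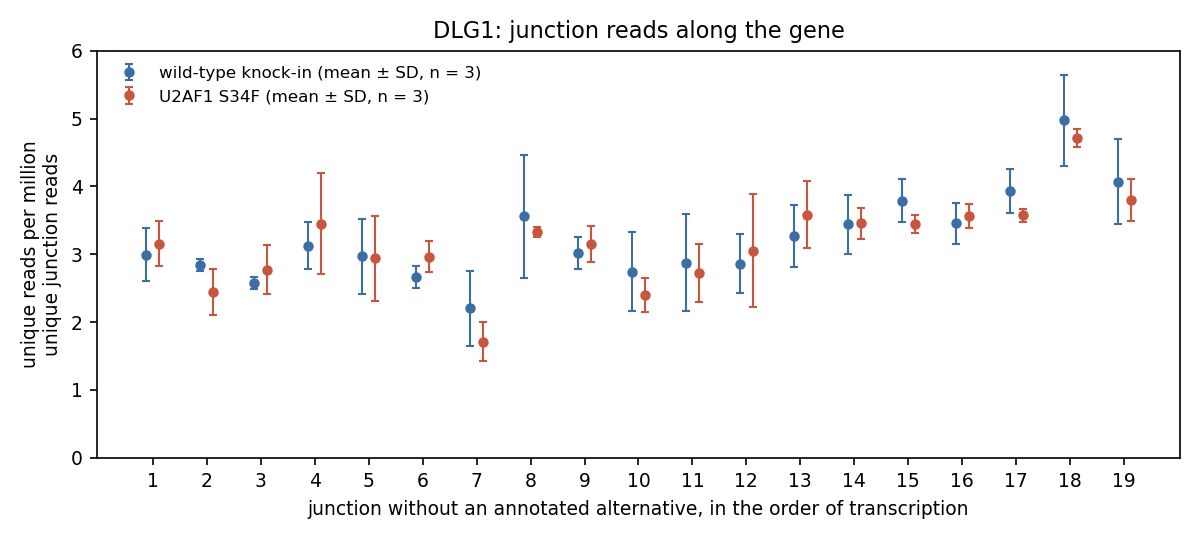
Unique reads per 1000000 unique junction reads (y axis) at the 19 annotated DLG1 junctions with at least 10 reads and no annotated alternative of that depth, in the order of transcription (x axis). Points are means and bars SD over 3 libraries, blue for wild-type knock-in and red for U2AF1 S34F; the level is higher near the 3′ end in both genotypes.

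Along the gene, the 19 annotated junctions with at least 10 unique reads and no annotated competitor of that depth had from 2.2 to 4.97 reads per 1000000 in wild type and from 1.71 to 4.71 in S34F. The lowest mean in both genotypes was at the junction from 196863412 to 196857543. The mean over the 4 such junctions nearest the 3′ end was 1.43 ± 0.13 times that over the 4 nearest the 5′ end in wild type and 1.33 ± 0.11 times in S34F (SD, n = 3 each). The ratios overlapped between the genotypes, so no difference in the slope along the transcript was seen beyond the spread.

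The 100 nt exon is followed by a 34 nt exon, and most transcripts read here used one or the other. A 67 nt exon at 196807922 to 196807988 comes before them, and its 5′ splice site is intron base 196807921. From there the acceptor of the 100 nt exon lies past 4365 nt of intron. A second acceptor, which is unannotated, opens the exon 3 nt further in, and makes a 97 nt form. The 34 nt exon is at 196802708 to 196802741, past 5180 nt of intron. Both lead on to a 42 nt exon at 196796090 to 196796131. The 100 nt exon, its 97 nt form and the 34 nt exon each leave 1 nt after division by 3, so that each alone shifts the phase of the transcript by the same amount. Used together, the 100 nt and 34 nt exons add 134 nt, which leaves 2.

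At the 5′ splice site before them, wild-type libraries mostly joined the 34 nt exon and S34F libraries mostly joined the 100 nt exon. The annotated acceptor of the 100 nt exon took 33.8%, 31.6% and 28.0% of the reads in wild type. It took 56.4%, 52.3% and 60.6% in S34F, above every wild-type library. The means were 31.1% ± 2.9 and 56.4% ± 4.1 (SD, n = 3 each). The acceptor of the 34 nt exon took 53.5%, 57.0% and 64.0% in wild type. It took 20%, 20.5% and 12.8% in S34F, below every wild-type library, with means of 58.2% ± 5.3 and 17.8% ± 4.3. With the unannotated acceptor included, the 100 nt exon was entered by 39.1% ± 6.3 of the wild-type reads and by 77.5% ± 3.1 of the S34F reads.

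**Figure D2:**
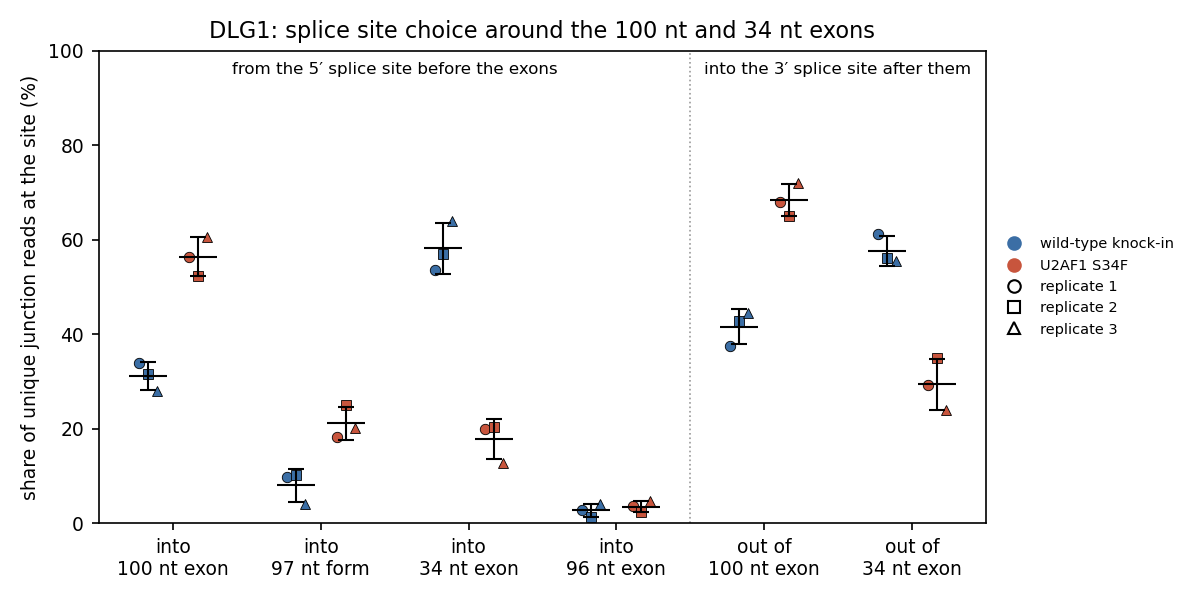
Share of unique reads (y axis, percent) at the 5′ splice site before the 100 nt exon, by the exon joined (left of the dotted line), and at the acceptor after the 34 nt exon, by the exon left (right of it). Points are libraries, with the shape giving the replicate, long ticks means and bars SD (n = 3); blue is wild type, red is S34F, and the genotypes change places between the 100 nt and 34 nt exons, while the 96 nt exon stays below 5% in every library.

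Each share rests on few reads. The 5′ splice site had 71, 79 and 50 reads in wild type, against 55, 44 and 109 in S34F. Entry into the 100 nt exon by either acceptor was 43.7% (95% Clopper-Pearson interval 31.9% to 56.0%) in wild-type replicate 1, the highest of that group. It was 74.5% (61.0% to 85.3%) in S34F replicate 1, the lowest of its group. These intervals cover counting error only. Their separation supports nothing, since the difference chose the gene. Wild-type replicate 3 was the lowest of all at 32% (19.5% to 46.7%), and S34F replicate 3 the highest at 80.7% (72.1% to 87.7%).

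The unannotated acceptor 3 nt inside the exon was used in every library. It took 9.86%, 10.1% and 4.0% of the reads from the 5′ splice site in wild type, against 18.2%, 25% and 20.2% in S34F. Among the reads that entered the exon, however, the genotypes lay close. This acceptor had 22.6%, 24.2% and 12.5% of entering reads in wild type, against 24.4%, 32.4% and 25% in S34F, with only 2 to 22 reads behind each value. The lowest S34F library was thus just above the highest wild-type library.

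The acceptor of the 42 nt exon gives the view from the other side. Of the reads that joined it, those leaving the 100 nt exon made up 37.5%, 42.9% and 44.4% in wild type. They made up 68.0%, 65.1% and 71.9% in S34F, again with no overlap. The 34 nt exon supplied 61.3%, 56.0% and 55.6% in wild type, against 29.3%, 34.9% and 24.0% in S34F. These reads cross other junctions than the entering ones, but come from the same libraries and exons. The site had 43 to 146 reads per library.

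**Figure D3:**
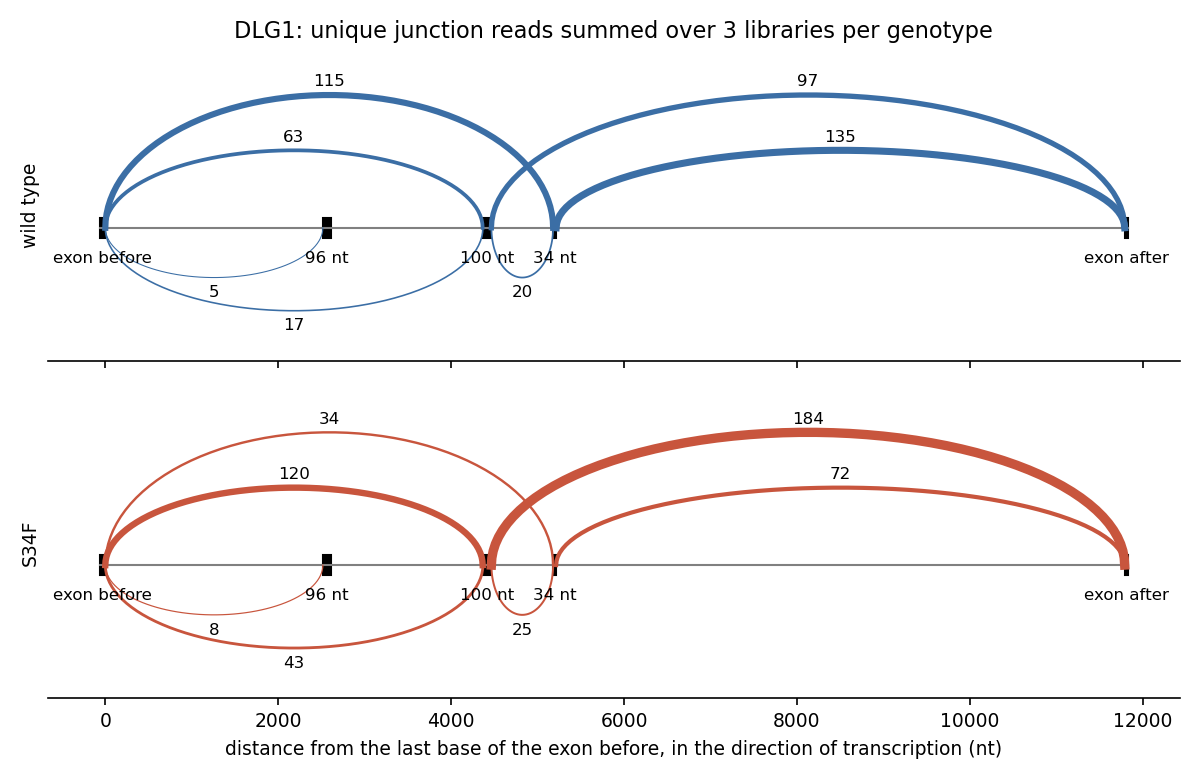
Map of the DLG1 region to scale (x axis, nt from the last base of the 67 nt exon, in the direction of transcription), with exons as black boxes and junctions as arcs whose width and number give unique reads summed over 3 libraries per genotype. The lower arc into the 100 nt exon is its unannotated acceptor. Of 200 reads from the 5′ splice site in wild type, 115 joined the 34 nt exon directly, against 34 of 208 in S34F.

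Joining the 100 nt exon to the 34 nt exon was the lesser route in both genotypes. Of the reads leaving the 100 nt exon, 21.1%, 17% and 12.5% entered the 34 nt exon in wild type. In S34F 10.5%, 12.5% and 12.5% did, so the groups met at 12.5%. This route gave 17.4%, 15.1% and 11.1% of all reads into the 34 nt exon in wild type, against 35.3%, 30.8% and 51.7% in S34F. Skipping of both exons was seen in 3 reads, 1 in S34F replicate 1 and 2 in S34F replicate 3. It was at 0 of 200 reads in wild type, which allows a share of up to 1.5%, so that a difference was not detectable at this depth. A 96 nt exon at 196805309 to 196805404 has an annotated entering junction, but the junctions seen to leave it are unannotated. It was joined by 1.27% to 4.59% of the reads over the 6 libraries, and the groups overlapped.

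Per 1000000 unique junction reads of the library, entry into the 34 nt exon was 1.49, 1.8 and 1.65 in wild type. It was 0.469, 0.498 and 0.356 in S34F, lower in each library. Reads that reach the 34 nt exon from the 100 nt exon are not in these values. Entry into the 100 nt exon by either acceptor was 1.22, 1.32 and 0.826 in wild type, against 1.75, 1.88 and 2.24 in S34F, higher in each library. All reads from the 5′ splice site came to 2.85 ± 0.30 and 2.52 ± 0.23 (SD, n = 3 each), and these values overlapped. The reads into and out of each exon did not match exactly. The 34 nt exon had 135 reads in and 135 out in wild type, and 59 in and 72 out in S34F. The 100 nt exon had 84 in and 117 out in wild type and 168 in and 209 out in S34F.

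As a cassette exon between the 67 nt and 34 nt exons, the 100 nt exon had an inclusion level of 29.6%, 26.8% and 22.0% in wild type. Inclusion was taken as the mean of the entering and leaving junction over that mean plus the skipping junction. It was 62.7%, 60.0% and 74.3% in S34F, with means of 26.1% ± 3.9 and 65.7% ± 7.6. This measure counts only 45 reads that leave for the 34 nt exon and none of the 281 that leave for the 42 nt exon. On the entering side it counts 183 reads at the annotated acceptor and none of the 60 at the unannotated one. The difference of 39.5 percentage points became 24.7 when the leaving junction was used alone and 41.1 with the entering junction alone. The 34 nt exon, between the 100 nt and 42 nt exons, had an inclusion level of 48.7%, 43.1% and 41.1% in wild type, against 21.5%, 25.3% and 19.2% in S34F. This level counts 45 reads that enter from the 100 nt exon but 207 that leave. The leaving reads include those of transcripts that joined the 34 nt exon directly from the 67 nt exon. By the reads leaving the 100 nt exon alone, the genotypes met at 12.5%, so the level does not measure inclusion after the 100 nt exon.

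Calls were read from a test fitted over every event of the genome with edgeR's quasi-likelihood test, at a Benjamini-Hochberg adjusted p under 0.05 and at least 10 percentage points between the means. Of 6 DLG1 cassette exons tested, 2 were called, against 2.74% of 19272 over all genes. Of 16 DLG1 junctions tested for acceptor choice at a 5′ splice site, 2 were called, against 2.12% of 51522. Of 18 tested for the choice of 5′ splice site at an acceptor, 2 were called, against 0.934% of 48269. All 6 calls lay at the 100 nt and 34 nt exons. The difference there chose the gene and so fixed these calls, and nothing is read from their number. The cassette calls numbered 0 without S34F replicate 3, and 1 without wild-type replicate 2, S34F replicate 1 or S34F replicate 2. The calls of acceptor choice numbered 0 without S34F replicate 3 and 1 without wild-type replicate 2, wild-type replicate 3, S34F replicate 1 or S34F replicate 2. The calls of 5′ splice site choice numbered 2 without wild-type replicate 1 and 0 without each of the other libraries.

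Outside these exons, no DLG1 event passed the test. With edgeR, 0 of 4 cassette exons, 0 of 10 acceptor choices and 0 of 16 choices of 5′ splice site were called. At an unadjusted p under 0.05 there were 0, 1 and 0 of these, against 23.9%, 19.9% and 17.3% of the events of each class over all genes. DESeq2 called 0 of them in each class. Over all genes it called only 271 of 19272, 150 of 51522 and 185 of 48269. It had 0 of them at an unadjusted p under 0.05 (17.8%, 11.9% and 12.3% over all genes). With limma on log2 odds 0 were called, and 1, 2 and 2 had an unadjusted p under 0.05 (22.5%, 18.7% and 16.1% over all genes). But limma called 0 events of any class over all genes, so its 0 calls in DLG1 say nothing about these events. By range alone, 7 of the 20 site partners with a mean share of at least 5% did not overlap between the genotypes, over 8 splice sites. Over all genes, 30.5% of 43684 partners chosen by the same rule did not overlap, so the count in DLG1 is near the background. Several of the 20 are complements of each other or flank the same exon.

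**Figure D4:**
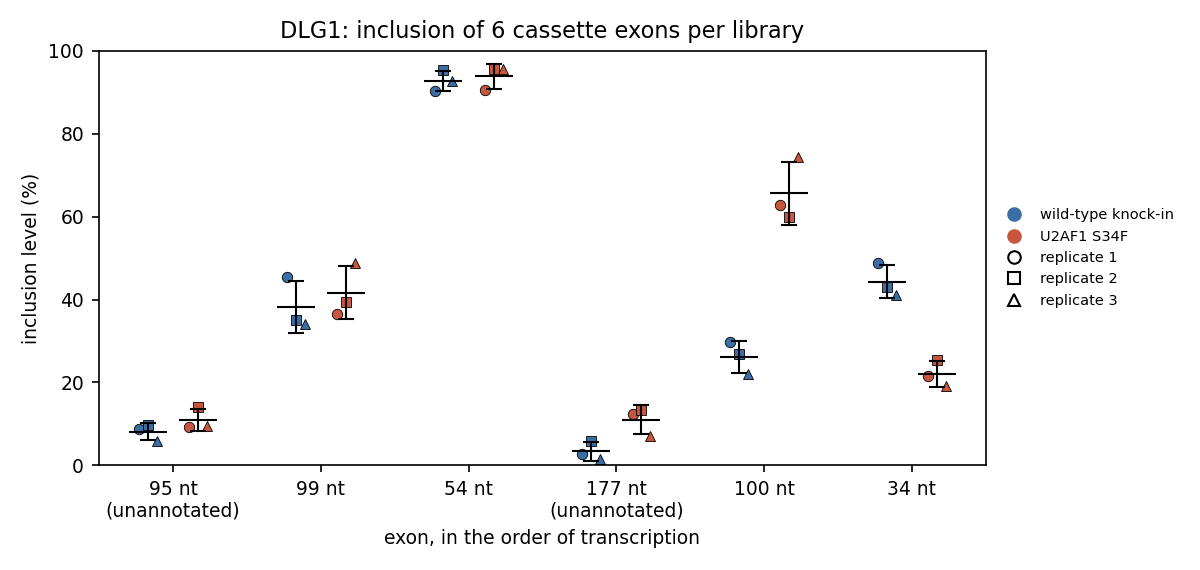
Inclusion level (y axis, percent) of the 6 DLG1 cassette exons with enough reads, in the order of transcription (x axis, by exon length). Points are libraries, with the shape giving the replicate, long ticks means and bars SD (n = 3), blue for wild type and red for S34F; the genotypes do not overlap at the 177 nt, 100 nt and 34 nt exons. The level of the 34 nt exon also counts leaving reads of transcripts that skipped the 100 nt exon.

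A pair of annotated exons upstream of the 67 nt exon, of 99 nt at 196888511 to 196888609 and of 54 nt at 196876614 to 196876667, showed no difference beyond the spread. Both have lengths divisible by 3. The 99 nt exon was included at 45.5%, 35.1% and 34.1% in wild type. It was included at 36.6%, 39.5% and 48.8% in S34F, so wild-type replicate 1 and S34F replicate 3 stood above the rest. The means were 38.2% ± 6.3 and 41.6% ± 6.4 (SD, n = 3 each). On the log2 odds scale S34F was higher by 0.22, with an SE of 0.38 and an edgeR adjusted p of 0.764. The 54 nt exon was included at 90.2%, 95.3% and 92.6% in wild type, against 90.4%, 95.5% and 95.5% in S34F (log2 odds 0.24, SE 0.60, edgeR adjusted p = 0.842).

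At the 5′ splice site before this pair, intron base 196921295, there was a choice of 3 annotated acceptors. The 54 nt exon was joined directly by 53.4% to 66.3% of the reads over the 6 libraries, and the 99 nt exon by 28.9% to 42%. Skipping of both, to the acceptor at 196869640, took 7.69%, 4.35% and 6.67% in wild type, against 9.38%, 3.7% and 4.02% in S34F, with overlap. The order of these routes was the same in every library. Into the 54 nt exon, 42% ± 7.4 of the reads came from the 99 nt exon in wild type and 45% ± 6.8 in S34F (edgeR adjusted p = 0.881).

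An unannotated 177 nt exon at 196857673 to 196857849, of a length divisible by 3, had the next largest difference among the cassette exons of the gene. It was included at 2.78%, 5.98% and 1.54% in wild type. It was included at 12.5%, 13.4% and 6.98% in S34F, above every wild-type library. The means of 3.43% ± 2.3 and 11.0% ± 3.5 (SD, n = 3 each) did not pass the test (log2 odds 1.33, SE 0.68, edgeR adjusted p = 0.24). Its entering junction had 1, 4 and 1 reads in wild type, against 5, 5 and 6 in S34F, and its leaving junction 3, 3 and 0 against 5, 4 and 6. Skipping was seen in 32 to 80 reads per library. The skipping junction itself took 98.6%, 93.2% and 97% of the reads at its 5′ splice site in wild type, against 87.5%, 85.3% and 92% in S34F. This was the single event outside the 100 nt region with an unadjusted p under 0.05 (log2 odds -1.62, SE 0.75, edgeR adjusted p = 0.22).

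An unannotated 95 nt exon at 197022185 to 197022279 was included at 8.86%, 9.8% and 5.79% in wild type and at 9.22%, 14.0% and 9.5% in S34F (log2 odds 0.41, SE 0.50, edgeR adjusted p = 0.673). Its 2 sides differed. Entry took 6.49%, 8.0% and 3.39% of the reads at 5′ splice site 197023216 in wild type, against 9.86%, 16.4% and 11.0% in S34F, without overlap. This did not pass (log2 odds 1.06, SE 0.59, edgeR adjusted p = 0.323). The leaving junction took 11.1%, 11.5% and 7.94% of the reads at acceptor 197009717 in wild type, against 8.57%, 11.5% and 7.95% in S34F, nearly the same range.

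**Figure D5:**
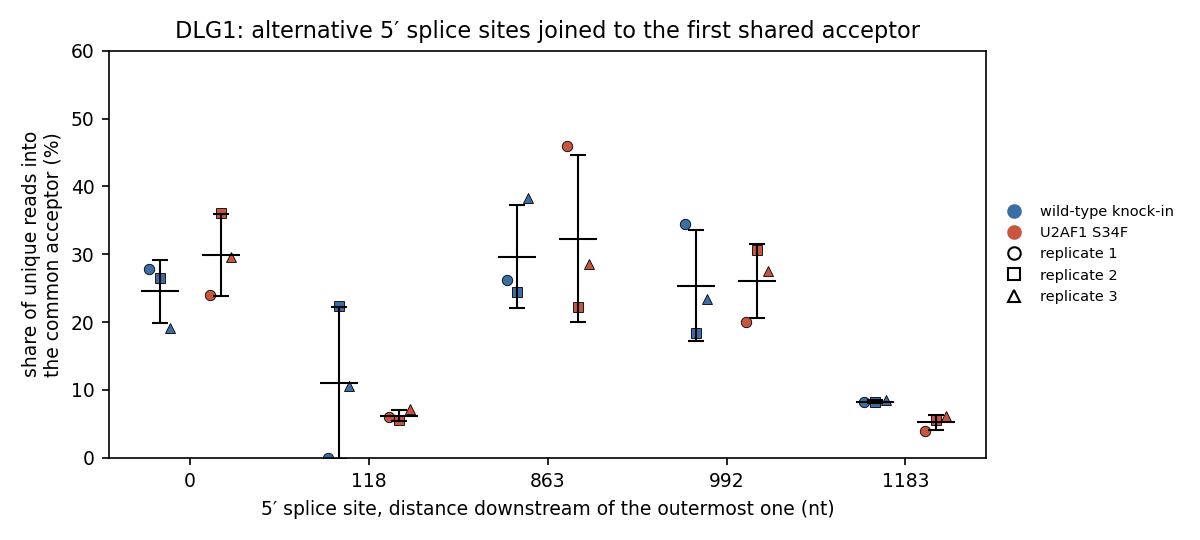
Share of unique reads into the DLG1 acceptor at intron base 197024107 (y axis, percent) by the 5′ splice site joined (x axis, nt downstream the outermost of the 5 annotated sites with a mean share of at least 5%). Points are libraries, with the shape giving the replicate, long ticks means and bars SD (n = 3), blue for wild type and red for S34F; the genotypes overlap at every site except the innermost.

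Several annotated 5′ splice sites near the start of the gene joined a common acceptor at intron base 197024107. The acceptor had 36 to 98 reads per library. An annotated site at 197024943 had 1 read in all, in wild-type replicate 1, and is left out of the 5 described. The site at 197024543, a GC donor in place of the usual GT, took 26.2%, 24.5% and 38.3% in wild type, against 46.0%, 22.2% and 28.6% in S34F, the widest spread of the 5 within S34F. The site at 197025406 took 24.5% ± 4.7 in wild type and 29.9% ± 6.1 in S34F, and the site at 197024414 took 25.4% ± 8.2 and 26.0% ± 5.4 (SD, n = 3 each). The innermost site, at 197024223, took 8.2%, 8.16% and 8.51% in wild type, against 4.0%, 5.56% and 6.12% in S34F. These did not overlap but rest on 2 to 6 reads per library (log2 odds -0.66, SE 0.67, edgeR adjusted p = 0.679). The site at 197025288 had 0 of 61 reads in wild-type replicate 1, which allows up to 4.92%, against 22.4% and 10.6% in the other wild-type libraries, and 5.56% to 7.14% in S34F. Adjusted p-values for the 5 sites were from 0.679 to 0.999 with edgeR.

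Junctions outside the annotation were mostly rare. Of the 56 unannotated junctions, 49 had fewer than 10 unique reads over the 6 libraries. The 7 others include the 97 nt form and both junctions of the 95 nt and of the 177 nt exon. Without the acceptor of the 97 nt form, unannotated junctions took 1.78%, 2.08% and 1.62% of the DLG1 reads in wild type. They took 2.52%, 2.53% and 2.13% in S34F, higher in 3 of 3 libraries but by little. The difference was 0.57 percentage points. These shares still count unannotated junctions at the splice sites of the exon that chose the gene, such as 196805308 to 196803557. They are therefore a description with no p-value, and their separation supports nothing. Whether the genotypes stay apart without those junctions was not tested. The measure was also chosen after its values were seen. Over all genes, unannotated junctions took 1.03% to 1.25% of unique reads in wild type and 1.24% to 1.38% in S34F, with overlap.

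The cassette exons outside DLG1 whose inclusion was nearest to that of the 100 nt exon in each library were picked by root mean square difference, among 19266. The nearest had 66 nt and lay on chromosome 12 at 121840545 to 121840610 (plus strand), with a difference of 5.13 percentage points. It had 33.3%, 33.3% and 30.9% in wild type, against 64.5%, 56.8% and 77.1% in S34F. A 122 nt exon on chromosome 7 at 75510683 to 75510804 (plus strand) differed by 5.94 percentage points, and one of 99 nt on chromosome 1 at 144604410 to 144604508 (plus strand) by 7.93. Both had all 3 S34F libraries above all wild-type libraries. They were chosen for that likeness, so no test applies.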

How the data were processed

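RNA with poly(A) tails was selected from K562 cells, prepared with a TruSeq kit and read from both ends on a HiSeq2000, per the labels' protocols. The authors aligned reads with STAR to hg19, per the submitters' processing notes; the version, annotation and junction filters are not given in the sources used here. The deposited values are raw counts of uniquely mapped and of multi-mapped reads per junction, with no header, in positions of the first and last intron base. The column for the largest overhang was used only to describe junctions.

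Tables were joined on position, and a junction not listed was counted as 0. Members and lists were chosen with earlier results of these data known. Shares at each splice site used unique reads of junctions inside the window. The fits also counted 2 junctions, with 5 reads, that cross its edge. Genome-wide events needed a canonical motif code, 20 or more reads in each library and 10 or more per side; cassette exons were at most 500 nt. edgeR 4.0.16 (R 4.3.3) fitted 2 counts per library and event, with terms for library, count type and count type by S34F. The last gave the change in log2 odds, and its SE was taken as that change divided by the square root of F. The library term takes up library size. DESeq2 1.42.0 and limma 3.58.1 (0.5 added to each side) were alternatives, as were other filters, multi-mapped reads, a replicate block, and leaving out each library. The main fit did not pair the samples by replicate number. Text names the 11 DLG1 splice sites, 5 of them 5′ splice sites, with 2 or more partners at a mean share of at least 5%, the cassette exons tested, and the 3 most alike exons. Intervals are 95% Clopper-Pearson intervals, limits for 0 counts take 3 reads, and both cover counting error only, as PCR copies were not marked by molecular identifiers. Python 3.11.15, pandas 2.3.3, numpy 2.4.6, scipy 1.17.1 and matplotlib 3.10.9 were used.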

Additional observations from a re-analysis of the deposited data

Results flagged for a closer look

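Multi-mapped reads, which entered no main value, numbered 435 at DLG1 junctions over the 6 libraries. They made up 3.07%, 1.91% and 5.95% of DLG1 junction reads in wild type and 3.4%, 2.96% and 3.77% in S34F, so the groups overlapped. Several annotated junctions were listed almost only through such reads. The junction from 196910445 to 196876668, into the 54 nt exon, had 36 of them and 2 unique reads. The junctions to acceptor 196921461 from 196987129 and from 196952727 had 12 each, and the one from 196876613 to 196867136 had 12, with 0 unique reads at all of these. The largest overhang was 2 nt at the former pair and 1 nt at the last.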

How the results depend on the processing

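All alternatives but 2 were listed with the design; the share entering the 100 nt exon by either acceptor and the measure over all its reads were added after the data were seen. The difference in inclusion of the 100 nt exon was 39.5 percentage points. It was 24.7 with the leaving junction alone, whose 45 reads are few, from 37.0 to 41.1 under the other settings with all libraries, and from 35.2 to 42.4 without single libraries. The 2 called DLG1 cassette exons became 1 with DESeq2, 1 with the replicate block, 0 with limma and 0 with at least 50 reads (1 exon tested). The 2 acceptor calls became 1 with DESeq2, the replicate block or no low-count filter, and 0 with limma or at least 50 reads. The 2 calls of 5′ splice site choice became 0 with DESeq2, limma, the replicate block, at least 50 reads or no low-count filter. Leaving out single libraries gave 0 to 2 calls in each class. Over all genes the calls among cassette exons, acceptor and 5′ splice site choices, 529, 1092 and 451, became 271, 150 and 185 with DESeq2, 0, 0 and 0 with limma (4342, 9648 and 7794 at an unadjusted p under 0.05), 186, 923 and 348 with the block, and 0, 77 and 4 without S34F replicate 3. They became 1083, 1932 and 1208 without wild-type replicate 1. With no minimum difference they were 1110, 2392 and 983, with 20 percentage points 226, 474 and 218, with at least 50 reads 314, 681 and 301, and with no low-count filter 679, 495 and 208. Same-numbered libraries did not deviate together (correlations from -0.086 to -0.018), so no pairing was seen, though this check cannot exclude it. The difference in DLG1 level, 0.27 per 1000000, was -1.48 with size factors, -0.43 over annotated junctions, -0.56 with multi-mapped reads, and from -2.94 to 3.66 without single libraries, with exact permutation p-values from 0.4 up; the replicate block gave the same value. Without single libraries, differences in percentage points ran from -0.19 to 7.01 for the 99 nt exon, -0.13 to 2.8 for the 54 nt exon, -2.37 to 0.46 for skipping of both and -0.021 to 6.37 for direct entry to the 99 nt exon. Into the 54 nt exon they ran from -0.75 to 7.22 from the 99 nt exon and -7.57 to 0.073 from the exon before. For the 5′ splice sites at 197024414, 197024543 and 197025288 they ran from -3.34 to 4.87, -4.7 to 7.49 and -10.2 to 0.82. Of 369 values for 33 single sites or exons, 317 kept direction and call, 37 lost the call and 15 turned sign. All 15 were where a library was left out. All 37 were at events called in the main fit. Most of the 317 were at events not called there, so they do not measure how stable the calls were. Among these values, the annotated acceptor of the 100 nt exon and both called choices of 5′ splice site stayed called only without wild-type replicate 1 and with multi-mapped reads. Direct entry to the exon after it lost the call only with limma and without S34F replicate 3. For these changes the cause was not tested. Depth limits every share: the 5′ splice site before the 100 nt exon had 44 to 109 reads per library.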
